A study of Homo sapiens with 6 samples.

Results

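The genes described here move or store zinc, iron and copper in human cells: the SLC30A and SLC39A zinc transporters, the metal-responsive transcription factor MTF1, genes of iron uptake, storage and export, and copper carriers. They were taken by name from a list of 41 genes, and metallothioneins were left out of it. Of these, 40 were matched among the 57905 Ensembl gene IDs of the deposited table; no ID there was paired with NCOA4, so NCOA4 was not analysed. The listing used names, not values, although earlier results of these libraries were known when it was drawn up.

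RNA was sequenced from Huh7, an established human hepatoma line, in 2 groups of 3 libraries. Cells of the siASGR1 group were transfected with an siRNA against ASGR1, the major subunit of the asialoglycoprotein receptor, and cells of the siControl group with a scrambled siRNA; all were harvested after 72 h. A single cell line and, as far as the labels say, a single siRNA were used, and the labels do not state whether the libraries came from separate cultures. The p-values therefore reflect library-to-library spread alone, and that spread may be technical.

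Zinc enters the cytosol through SLC39A (ZIP) proteins and leaves it, to the outside or into organelles, through SLC30A (ZnT) proteins; MTF1 senses free zinc and drives metallothionein genes and SLC30A1. Hepatocytes make transferrin, take up its iron through transferrin receptors, store iron in ferritin and release it through ferroportin (SLC40A1), which the liver hormone hepcidin (HAMP) removes from the cell surface. Iron regulatory proteins bind hairpins called iron-responsive elements in mRNAs and either block translation or protect the mRNA from decay. Copper enters through SLC31A1, is passed on by the chaperone ATOX1, and is loaded into secreted proteins or exported by the ATPases ATP7A and ATP7B.

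The search letters below, and the promoters printed, were chosen after the members' values were seen. The elements that iron regulatory proteins read are shown first, as far as a strict pattern finds them. A hairpin that breaks the pairing asked for below would be missed. A gene without a match, such as SLC11A2, may therefore still carry one. GENCODE v29 protein-coding transcripts were searched for a C, 5 bases, the loop letters CAGTG followed by any base but G, and 5 bases that pair with the first 5. Such a match lay in 6 of the 41 listed genes and in 214 of 19702 protein-coding genes (1.09%), whose transcripts differ in length. The 27 bases around each match are printed 5′ to 3′ as DNA on the gene's strand, with the bulged C and the loop in capitals. FTH1 (chr11:61967575-61967601, GRCh38, minus strand), FTL (chr19:48965336-48965362, plus strand) and SLC40A1 (chr2:189580662-189580688, minus strand) hold it in the 5′ UTR, where binding blocks translation.
FTH1: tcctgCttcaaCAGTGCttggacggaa
FTL: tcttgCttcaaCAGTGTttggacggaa
SLC40A1: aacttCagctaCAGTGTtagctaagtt
TFRC carries 4 matches in its 3′ UTR, where binding protects the mRNA, all on the minus strand of chromosome 3 in GRCh38: chr3:196050980-196051006, chr3:196050576-196050602, chr3:196050511-196050537 and chr3:196050464-196050490, in the order of transcription.
TFRC site 1: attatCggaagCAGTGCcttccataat
TFRC site 2: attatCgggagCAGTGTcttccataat
TFRC site 3: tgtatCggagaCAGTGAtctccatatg
TFRC site 4: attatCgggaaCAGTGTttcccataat
The remaining matches, in the 3′ UTRs of SLC39A9 and TF, are matches of letters only.

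The zinc sensor's own element was looked for in promoters. RefSeq windows (GRCh38.p14) from 250 bases before to 50 after a gene's start were found for 35 of the 41 listed genes. MTF1 binds metal response elements, searched here as TGCACNC or TGCGCNC on both strands, with overlapping matches counted separately. At least 1 match lay in 22 of 53 windows of the listed genes (41.5%) and in 29.6% of all 35116 windows. At least 2 matches lay in 8 of those 53 (15.1%), against 8.6% of all windows. SLC30A1 had 2, of which 1 lies past the start. This RefSeq start lies before the GENCODE v29 start of the gene (chr1:211578742), and the bases next to the GENCODE start were not searched. The 250 bases before the RefSeq start (chr1:211579162-211579411, minus strand) are shown with the other match in capitals, 49 bases before that start. SLC30A1 is shown because it is the best known zinc transporter target of MTF1.
SLC30A1: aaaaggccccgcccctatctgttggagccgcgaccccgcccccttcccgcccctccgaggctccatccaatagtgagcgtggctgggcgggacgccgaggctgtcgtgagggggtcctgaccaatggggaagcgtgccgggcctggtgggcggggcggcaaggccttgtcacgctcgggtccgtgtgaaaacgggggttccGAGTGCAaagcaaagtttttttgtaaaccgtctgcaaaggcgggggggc
The metallothionein gene MT2A is the counterpart to it, with 7 matches in the 250 bases before its start (chr16:56608334-56608583, plus strand). Its levels are set beside those of SLC30A1 further on. Windows were found for 5 metallothioneins. Before the start, MT1H held 8 matches, MT1X 4, and MT1B and MT4 3 each.
MT2A: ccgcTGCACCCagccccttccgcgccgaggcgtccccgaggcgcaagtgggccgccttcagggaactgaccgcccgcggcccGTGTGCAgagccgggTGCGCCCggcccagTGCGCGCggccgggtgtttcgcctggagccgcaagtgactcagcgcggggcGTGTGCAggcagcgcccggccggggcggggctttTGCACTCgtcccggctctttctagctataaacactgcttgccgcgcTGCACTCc

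Levels are FPKM (fragments scaled to exon length and to the library's total). The exon lengths used to rebuild depth join all annotated exons of a gene, 26199 bases for TF. They can exceed the length of the mRNA, so comparisons of levels between genes are rough. The levels rested on about 18481000 to 19256000 fragments in the siASGR1 libraries and 16326000 to 19333000 in the siControl libraries, as rebuilt from the steps between low values. ASGR1 was 4.60, 4.82 and 4.71 FPKM in siASGR1 in the table of the whole series, against 17.54, 17.56 and 16.90 in siControl, but the libraries' own files list 14.65, 15.81 and 14.04 for siASGR1, and it was the only ID that differed between the sources. Markers of hepatocytes and hepatoma (ALB, AFP, TTR, APOA1, SERPINA1 and HNF4A) summed to 5773 to 5894 FPKM in siASGR1 and 3277 to 3423 in siControl. Fibroblast markers summed to 0.59 to 0.85 FPKM in siASGR1 and 5.49 to 6.62 in siControl, endothelial markers stayed at or under 0.20 per gene (KDR was at 0), and the leukocyte list (PTPRC, CD68, CD14 and LYZ) summed to 115.9 to 119.5 FPKM in siASGR1 and 69.62 to 76.3 in siControl. Nearly all of that sum was LYZ, lysozyme, which averaged 116.3 FPKM in siASGR1 and 71.5 in siControl and was called higher (adjusted p = 2.4e-05), while PTPRC, the defining leukocyte marker, averaged 0.0033 in either group. The part of these markers in the results below was not tested.

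Metal genes moved in both directions, and by modest amounts. Of the 40 matched genes, 32 had at least 1 FPKM in at least 3 libraries and were tested with limma on log2(FPKM + 1) among 13568 genes. By adjusted p under 0.05, 13 rose and 13 fell in siASGR1. The 13 that rose include STEAP2, which reached 1 FPKM only in siASGR1 libraries. Among all tested genes 61.3% were called, 20.9% as higher and 40.4% as lower. No tested member changed as much as 2-fold on this scale, which 5.62% of all tested genes did: the log2 fold changes of the tested members ran between -0.85 (SLC31A1) and 0.63 (SLC39A5). Their median was 0.001, against -0.13 for all tested genes. The groups did not overlap for 28 of the 32, with siASGR1 above in 15 and below in 13; among all tested genes 67.3% did not overlap, 23.5% with siASGR1 above and 43.8% below. In bulk RNA, fewer cells of a type and less RNA per cell cannot be told apart.

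Because FPKM express a share of a library, small changes depend on the scaling. Median-of-ratios scaling over the tested genes raised the median of all tested genes by 0.13, and with it 16 members were higher and 9 lower, against 29.9% and 28.9% of all tested genes. With the factors taken over all genes, as first run, 17 were higher and 8 lower, and the median of all tested genes was 0.03; the tested genes were adopted for the factors after those counts were seen. Below, median-of-ratios scaling means the version over tested genes. The decreases of MTF1, SLC30A6, SLC39A6 and TFR2 were then not called, and increases of SLC39A10, SLC39A14 and IREB2 were. Of the 26 called members, 16 kept their direction and call in each of the 21 alternatives that tested them: SLC30A9, SLC30A10, SLC39A3, SLC39A5, TF, TFRC, STEAP2 and CP were higher, and SLC30A1, SLC30A5, SLC39A9, SLC39A11, SLC39A13, SLC11A2, SLC40A1 and SLC31A1 lower. STEAP2 was tested in 17 of them and CP in 20. Leaving out any siASGR1 library took STEAP2 out of the test, since it reached 1 FPKM only in that group. Those alternatives could therefore not end its call.

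**Figure D1:**
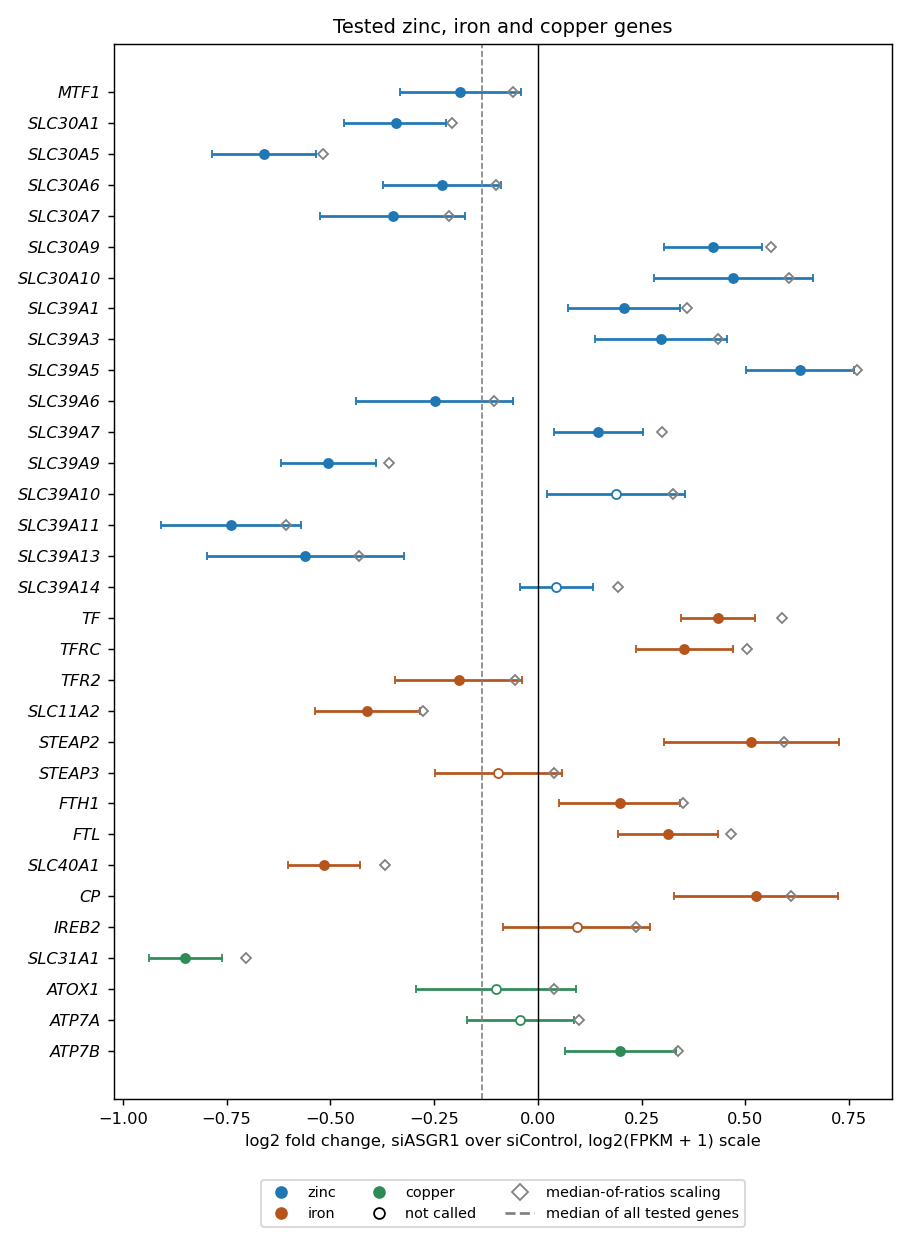
Log2 fold changes of the 32 tested members, siASGR1 over siControl, on the log2(FPKM + 1) scale (x axis; genes down the page by role). Circles and bars are estimates with 95% confidence intervals from 3 libraries per group, open circles were not called, diamonds are estimates with median-of-ratios scaling, and the dashed line is the median of all tested genes, -0.13; SLC31A1 lies farthest to the left at -0.85 and SLC39A5 farthest to the right at 0.63.

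The sensor and its target among the exporters were both lower. MTF1, the zinc sensor, was 4.76, 4.36 and 4.32 FPKM in siASGR1, against 5.31, 5.49 and 4.92 in siControl. The groups did not overlap, but the decrease was small (log2 fold change -0.19, SE 0.06, adjusted p = 0.033). The call was lost with median-of-ratios scaling (adjusted p = 0.432), and without siASGR1 replicate 2 (0.0841) or 3 (0.104) or siControl replicate 1 (0.0886) or 2 (0.104). SLC30A1, the zinc exporter of the plasma membrane, was 8.14, 7.53 and 7.96 FPKM in siASGR1, against 10.17, 9.87 and 10.75 in siControl. All siASGR1 libraries lay below all siControl libraries, and SLC30A1 fell by 0.34 on the log2 scale (SE 0.05, adjusted p = 0.00103).

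Of the 9 zinc exporters, 6 were tested, of which 4 fell and 2 rose, against 40.4% and 20.9% of all tested genes. Those that fell besides SLC30A1 bring zinc into the early secretory pathway. SLC30A5 was 9.84, 9.01 and 9.04 FPKM in siASGR1, against 14.84, 14.94 and 15.99 in siControl. Among the tested exporters its decrease was the largest, 1.64-fold in mean FPKM (log2 fold change -0.66, SE 0.05, adjusted p = 5.4e-05). Exons of SLC30A5 share 532 bases with an opposite-strand RNA gene, AC010273.1, which averaged 0.13 FPKM in siASGR1 and 0.77 in siControl. Its partner SLC30A6 fell 1.21-fold and SLC30A7 fell 1.32-fold in mean FPKM. The call of SLC30A6 was lost with median-of-ratios scaling (adjusted p = 0.179), which left SLC30A7 called (0.0328), although SLC30A7 was not called with the factors over all genes (0.0719).

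The exporters that rose were SLC30A9, which moves zinc out of mitochondria, and SLC30A10, which exports manganese from hepatocytes. SLC30A10 was 9.36, 8.30 and 8.30 FPKM in siASGR1, against 5.66, 5.54 and 6.73 in siControl. Its groups did not overlap (log2 fold change 0.47, SE 0.08, adjusted p = 0.00189). SLC30A9 averaged 12.02 ± 0.53 FPKM in siASGR1 and 8.71 ± 0.28 in siControl (SD, n = 3 each). SLC30A10 was thus above SLC30A1 in each siASGR1 library and below it in each siControl library: the ratio of SLC30A10 to SLC30A1 was 1.15, 1.102 and 1.04 in siASGR1, against 0.557, 0.561 and 0.626 in siControl.

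Such ratios within a library do not depend on its scaling. Those printed here were chosen after the values were seen, and with 3 libraries against 3 the smallest two-sided p an exact permutation test can give is 0.1, which each ratio whose groups do not overlap reaches.

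Among zinc importers, with 10 of 12 tested, 4 rose, 4 fell and 2 were not called. Of all tested genes 20.9% were called higher and 40.4% lower. SLC39A5, an importer of the basolateral membrane, was 11.77, 12.58 and 11.79 FPKM in siASGR1, against 7.82, 7.48 and 6.98 in siControl. Every siASGR1 library lay above every siControl library, and SLC39A5 rose 1.62-fold in mean FPKM (log2 fold change 0.63, SE 0.05, adjusted p = 7.7e-05). Of the plasma membrane importers, SLC39A1 rose 1.16-fold and SLC39A3 1.26-fold, while SLC39A6 fell 1.197-fold and its relative SLC39A10 averaged 9.30 ± 0.68 FPKM in siASGR1 and 8.04 ± 0.59 in siControl (adjusted p = 0.0522). In GENCODE v29 an overlapping gene on the same strand, AL358472.7, shares 2061 bases (60.8%) of SLC39A1's exons. Its ID is not among the deposited ones, so no deposited value shows reads split off from SLC39A1. SLC39A7, which releases zinc from the endoplasmic reticulum, had the highest level of the family, 145.1 ± 3.48 FPKM in siASGR1 and 131.0 ± 6.42 in siControl (adjusted p = 0.0261).

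Besides SLC39A6, the importers that fell were SLC39A11, SLC39A13 and SLC39A9, which are known from intracellular membranes. SLC39A11 was 5.55, 5.61 and 4.67 FPKM in siASGR1, against 9.65, 9.03 and 9.69 in siControl. Its log2 fold change of -0.74 (SE 0.07, adjusted p = 0.000124) was the largest decrease among the tested zinc genes. SLC39A13, mutated in a connective tissue disorder, was 4.83, 5.05 and 4.13 FPKM in siASGR1, against 7.59, 8.20 and 6.34 in siControl (log2 fold change -0.56, SE 0.10, adjusted p = 0.00231). SLC39A9 was 19.01, 18.12 and 17.11 FPKM in siASGR1, against 25.44, 26.76 and 25.98 in siControl (log2 fold change -0.51, SE 0.05, adjusted p = 0.00012). For each of these 3 genes every siASGR1 library lay below every siControl library. Exons of SLC39A9 share 373 bases (5.23% of their length) with ERH, an abundant gene on the opposite strand. ERH averaged 126.8 FPKM in siASGR1 and 110.0 in siControl.

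SLC39A14, the liver importer of zinc, manganese and non-transferrin iron, differed little. It was 35.59, 35.68 and 36.23 FPKM in siASGR1, against 33.63, 35.22 and 35.32 in siControl. The groups did not overlap, yet the difference was 0.04 on the log2 scale (95% interval -0.04 to 0.13, adjusted p = 0.33), and 0.19 with median-of-ratios scaling (adjusted p = 0.0033). Summed over the family, SLC39A members gave 323.4, 333.9 and 323.2 FPKM in siASGR1, against 318.4, 313.5 and 303.8 in siControl. Without SLC39A7 the sums were 181.8 ± 5.44 FPKM in siASGR1 and 180.9 ± 3.48 in siControl (SD, n = 3 each; two-sided exact permutation p = 0.8). The SLC30A members summed to 51.7, 47.3 and 49.6 FPKM in siASGR1 and to 53.8, 54.7 and 58.2 in siControl.

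Calls of several small changes were lost or gained when 1 library was left out. The estimates kept their sign, at -0.327 to -0.171 for SLC39A6 and 0.119 to 0.185 for SLC39A7 on the log2 scale. Leaving out 1 library ended the call of SLC39A6 (without siASGR1 replicate 2 adjusted p = 0.0609 or 3, 0.0692; without siControl replicate 2, 0.0677 or 3, 0.0802) and of SLC39A7 (without siASGR1 replicate 2, 0.0624 or 3, 0.0832; without siControl replicate 2, 0.0783 or 3, 0.0679). SLC39A10 was called higher without siASGR1 replicate 2 (adjusted p = 0.034) or siControl replicate 3 (0.0393).

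**Figure D2:**
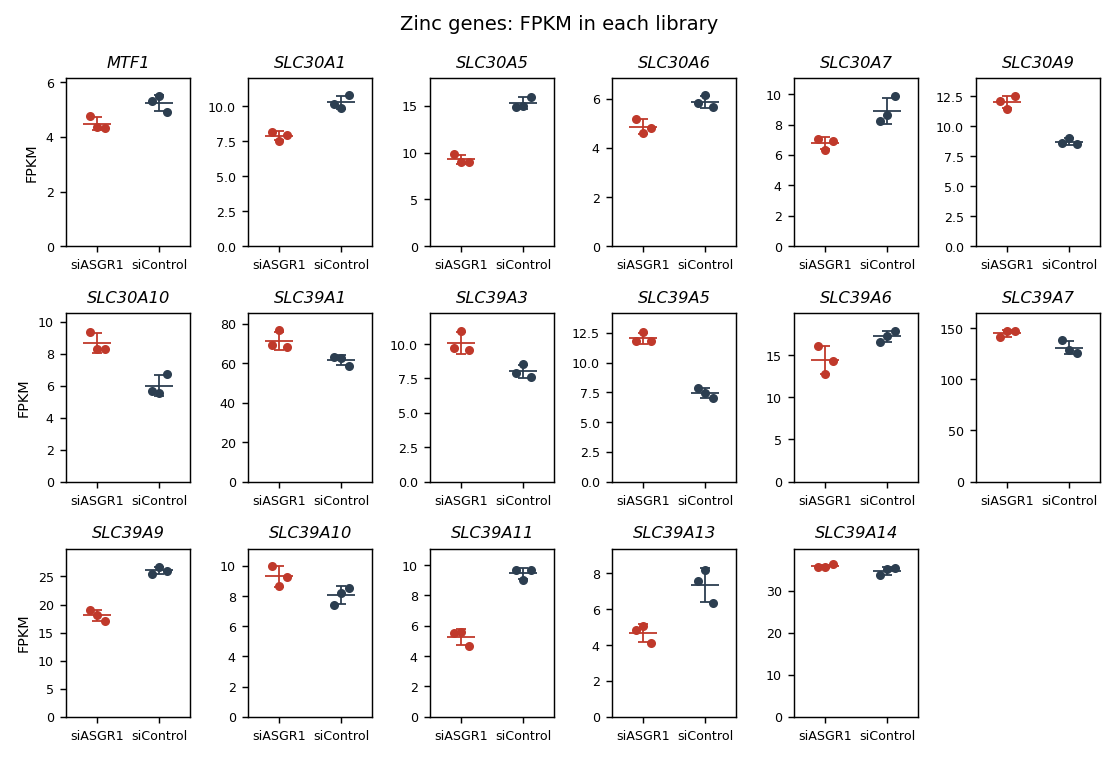
FPKM of MTF1 and the 16 tested zinc transporters in each of the 3 siASGR1 (left) and 3 siControl libraries (right), with the mean and SD; each panel has its own y axis starting at 0. SLC39A11, SLC39A13, SLC39A9 and SLC30A5 lie lower in all siASGR1 libraries, SLC39A5, SLC30A9 and SLC30A10 higher, and SLC39A14 is nearly level.

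Of 6 iron uptake genes, 3 rose and 2 fell, against 20.9% and 40.4% of all tested genes. TF, transferrin, was 309.59, 318.74 and 320.55 FPKM in siASGR1, against 239.87, 234.19 and 227.31 in siControl, and TFRC, the main transferrin receptor, was 114.44, 104.96 and 115.46 FPKM in siASGR1, against 85.47, 85.31 and 90.54 in siControl. Both genes were higher in every siASGR1 library: TF rose 1.35-fold in mean FPKM (log2 fold change 0.43, SE 0.04, adjusted p = 7.4e-05) and TFRC 1.28-fold (log2 fold change 0.35, SE 0.05, adjusted p = 0.000692). TFR2, a receptor that reports transferrin saturation to the hepcidin pathway, was 7.07, 7.72 and 6.93 FPKM in siASGR1, against 8.11, 9.09 and 8.04 in siControl. Its decrease (log2 fold change -0.19, SE 0.07, adjusted p = 0.0355) was not called with median-of-ratios scaling (adjusted p = 0.507), nor without siASGR1 replicate 1 (0.0972) or 3 (0.111) or siControl replicate 1 (0.052) or 2 (0.108). The ratio of TFRC to TFR2 was 16.2, 13.6 and 16.7 in siASGR1, against 10.5, 9.39 and 11.3 in siControl, with no overlap.

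SLC11A2 (DMT1), which carries ferrous iron across endosomal and plasma membranes, fell 1.39-fold, to 5.94 ± 0.083 FPKM in siASGR1, against 8.23 ± 0.47 in siControl (SD, n = 3 each; log2 fold change -0.41, adjusted p = 0.000503). STEAP3 reduces transferrin iron in endosomes. Its groups overlapped, at 6.97 ± 0.49 FPKM in siASGR1 and 7.51 ± 0.42 in siControl (95% interval of the log2 difference -0.25 to 0.06, adjusted p = 0.241), and the sign of the difference turned with median-of-ratios scaling (0.04, adjusted p = 0.64). STEAP2, another metalloreductase, was 1.62, 1.42 and 1.53 FPKM in siASGR1, against 0.79, 0.72 and 0.79 in siControl. It was 1.99-fold higher in mean FPKM (log2 fold change 0.51, SE 0.09, adjusted p = 0.00199), but it passed the filter on low values only through the siASGR1 libraries, so a difference was needed for it to be tested at all.

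Both ferritin chains were among the most abundant mRNAs, and both rose slightly. FTH1, the ferritin heavy chain with ferroxidase activity, was 899.57, 1003.93 and 870.33 FPKM in siASGR1, against 815.81, 822.13 and 778.01 in siControl. FTL, the light chain, was 3761.77, 4041.61 and 3797.12 FPKM in siASGR1, against 3103.56, 3153.49 and 3073.02 in siControl. Neither chain's groups overlapped, with a log2 fold change of 0.31 for FTL (SE 0.05, adjusted p = 0.00144) and 0.20 for FTH1 (SE 0.06, adjusted p = 0.0264). The call of FTH1 was lost without siControl replicate 1 (adjusted p = 0.0529) or 3 (0.0724), and with low genes kept in the fit neither chain was called (adjusted p = 0.149 for FTH1 and 0.224 for FTL). Together they took 1.506%, 1.588% and 1.503% of all FPKM in siASGR1, against 1.24%, 1.28% and 1.22% in siControl.

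The 2 chains moved almost in parallel, since the ratio of FTL to FTH1 was 4.18, 4.03 and 4.36 in siASGR1, against 3.80, 3.84 and 3.95 in siControl. Ferritin genes have many processed copies in the genome, so their single values are uncertain. In the table, 25 FTH1 pseudogenes summed to 14.27 to 16.03 FPKM in siASGR1 and 11.8 to 17.1 in siControl, at most 2.08% of FTH1 in any library. For 16 FTL pseudogenes the sums were 1.30 to 2.38 FPKM in siASGR1 and 1.97 to 2.20 in siControl. FTH1 also shares 1267 exon bases with BEST1 on the opposite strand, which averaged 0.147 FPKM in siASGR1 and 0.30 in siControl.

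On the export side, ferroportin went the other way. SLC40A1, the only known iron exporter of mammalian cells, was 21.95, 21.02 and 21.97 FPKM in siASGR1, against 31.50, 31.22 and 31.40 in siControl. All siASGR1 libraries were far below the narrow siControl range, and SLC40A1 fell 1.45-fold in mean FPKM (log2 fold change -0.52, SE 0.04, adjusted p = 3.4e-05). Set against the receptor for uptake, the ratio of SLC40A1 to TFRC was 0.192, 0.200 and 0.190 in siASGR1, against 0.369, 0.366 and 0.347 in siControl, which is 53.9% of the siControl mean. Of the mRNAs with a hairpin in the 5′ UTR shown above, FTH1 and FTL were thus higher and SLC40A1 lower, while TFRC, with hairpins in the 3′ UTR, was higher. The strict search could miss hairpins in other members, such as SLC11A2, which was lower.

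CP, ceruloplasmin, the copper-bearing ferroxidase that hepatocytes secrete, was 1.72, 1.88 and 1.83 FPKM in siASGR1, against 1.01, 0.98 and 0.87 in siControl. The level was low, with 1 FPKM reached in 3 siASGR1 libraries and 1 siControl library, and the increase was 1.899-fold in mean FPKM (log2 fold change 0.52, SE 0.08, adjusted p = 0.00135). HPS3, on the opposite strand, shares 1418 exon bases (19.4%) with CP and averaged 11.6 FPKM in siASGR1 and 10.8 in siControl, so some reads in CP could belong to HPS3 if counting did not use strand. IREB2, which encodes the iron regulatory protein IRP2, was 15.0 ± 1.28 FPKM in siASGR1 and 14.0 ± 1.07 in siControl, with overlapping groups (95% interval of the log2 difference -0.08 to 0.27, adjusted p = 0.315), but was called higher with median-of-ratios scaling (0.24, adjusted p = 0.0243).

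HAMP, hepcidin, was near its detection limit in Huh7. It was listed at 0.02, 0.05 and 0.10 FPKM in siASGR1 and at 0.02, 0 and 0.04 in siControl, that is, 0 to 6 rebuilt reads, where 3 reads in a library correspond to 0.0516 to 0.0611 FPKM. A difference in HAMP was not detectable at this depth. HFE, the hemochromatosis protein that binds TFRC, was 0.79, 0.68 and 0.41 FPKM in siASGR1 and 0.27, 0.52 and 0.44 in siControl, with overlapping groups.

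Of 4 tested copper carriers, the importer SLC31A1 fell and the exporter ATP7B rose, where 40.4% of all tested genes fell and 20.9% rose. SLC31A1 (CTR1) was 19.28, 18.93 and 19.07 FPKM in siASGR1, against 34.42, 35.07 and 36.13 in siControl. The groups were far apart, and SLC31A1 fell 1.84-fold in mean FPKM; on the log2(FPKM + 1) scale this was the largest change among the tested members (log2 fold change -0.85, SE 0.04, adjusted p = 5.2e-06). ATP7B, the hepatic copper exporter defective in Wilson disease, was 10.47, 10.71 and 11.35 FPKM in siASGR1, against 9.66, 9.60 and 8.71 in siControl. It rose 1.16-fold (log2 fold change 0.20, SE 0.06, adjusted p = 0.018), which was not called without siASGR1 replicate 3 (adjusted p = 0.0671) or with upper-quartile scaling over all genes (0.0532). The ratio of SLC31A1 to ATP7B was 1.84, 1.77 and 1.68 in siASGR1, against 3.56, 3.65 and 4.15 in siControl, with no overlap.

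ATOX1 and ATP7A, which like ATP7B is an exporting ATPase, were not called. ATOX1, the chaperone, was 9.41, 11.51 and 9.40 FPKM in siASGR1, against 11.31, 11.02 and 10.31 in siControl (95% interval of the log2 difference -0.29 to 0.09, adjusted p = 0.313). Its siASGR1 replicate 2 lay above all siControl libraries and the other two below them, and without it ATOX1 was called lower (-0.19, adjusted p = 0.0265). ATP7A, the copper ATPase of most other tissues, averaged 11.0 ± 0.66 FPKM in siASGR1 and 11.3 ± 0.34 in siControl (95% interval -0.17 to 0.09, adjusted p = 0.533). PGK1, on the same strand, shares 97 exon bases (0.89%) with ATP7A and averaged 602.8 FPKM in siASGR1 and 417.6 in siControl. Some reads in ATP7A could therefore belong to PGK1, which was not tested. The signs of ATOX1 and ATP7A turned with median-of-ratios scaling, to 0.04 (adjusted p = 0.73) and 0.10 (adjusted p = 0.14), and ATP7A was called higher with the factors over all genes (0.15, adjusted p = 0.043).

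**Figure D3:**
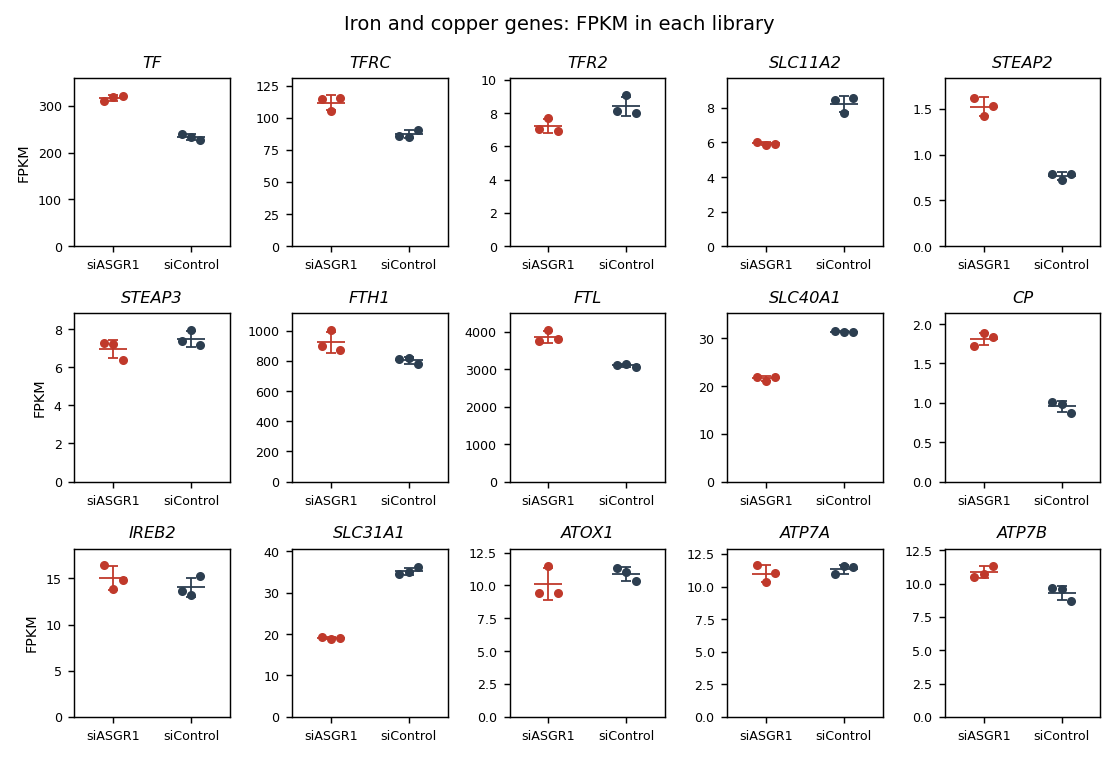
FPKM of the 15 tested iron and copper genes in each of the 3 siASGR1 (left) and 3 siControl libraries (right), with the mean and SD; each panel has its own y axis starting at 0. SLC31A1 and SLC40A1 lie clearly lower in siASGR1, TF, TFRC and FTL higher, and STEAP3, IREB2, ATOX1 and ATP7A overlap.

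**Figure D4:**
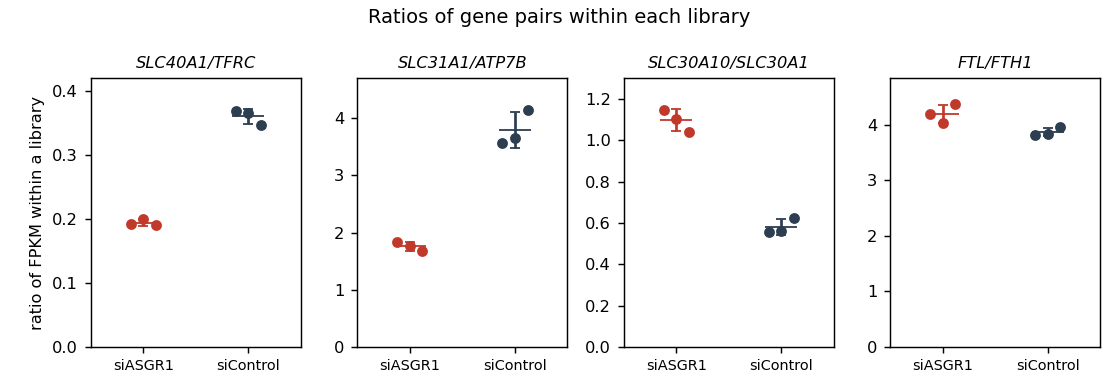
Ratios of FPKM of 2 genes within each library (y axis, starting at 0) for 3 siASGR1 (left) and 3 siControl libraries (right), with the mean and SD. The ratio of SLC40A1 to TFRC averaged 0.194 in siASGR1 and 0.360 in siControl, and the ratio of SLC31A1 to ATP7B 1.76 in siASGR1 and 3.79 in siControl, with groups apart in each of the 4 panels.

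The remaining 8 matched genes were under the filter. SLC30A3, known from synaptic vesicles, was 0.05, 0.03 and 0.01 FPKM in siASGR1 and 0.43, 0.34 and 0.54 in siControl. SLC30A4 was at most 0.02 FPKM in siASGR1 and 0.07 to 0.15 in siControl. Tested with no filter on low values, both were called lower (adjusted p = 0.00393 and 0.0384). The others were not called there: SLC39A8, a manganese and zinc importer, was 0.40 to 0.49 FPKM in siASGR1 and 0.63 to 0.79 in siControl (adjusted p = 0.121), and SLC31A2, a low-affinity copper carrier whose exons overlap those of FKBP15, was 0.10 to 0.30 FPKM in siASGR1 and 0.45 to 0.66 in siControl (adjusted p = 0.0593). SLC39A4, the intestinal zinc importer, was 0.30 to 0.43 FPKM in siASGR1 and 0.23 to 0.33 in siControl, and SLC30A2 was listed at 0 in all libraries but siControl replicate 2 (0.03).

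**Figure D5:**
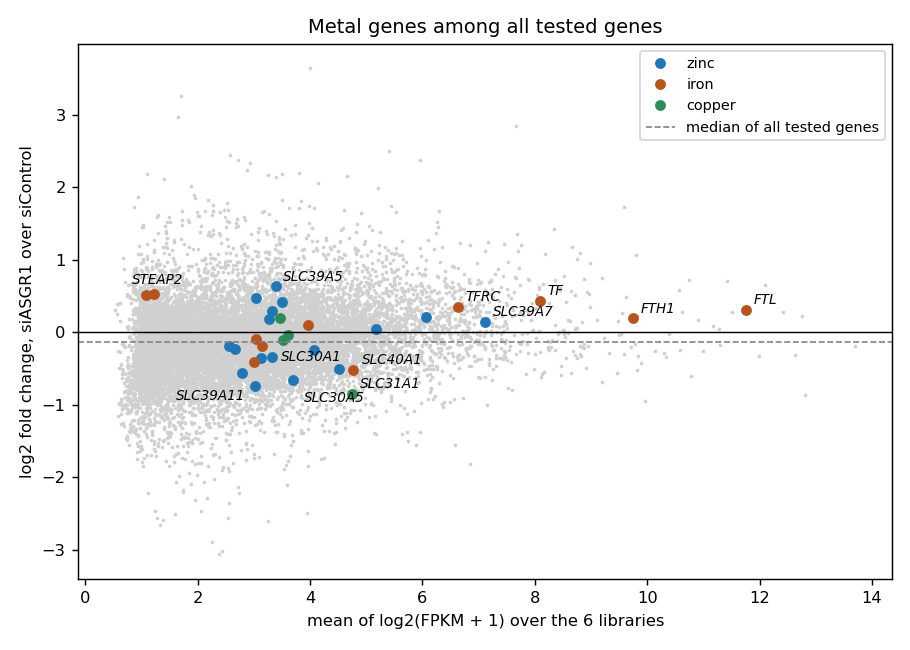
Log2 fold change, siASGR1 over siControl (y axis), against mean log2(FPKM + 1) over the 6 libraries (x axis) for all 13568 tested genes (grey) and the 32 tested members (coloured by metal); the dashed line is the median of all tested genes, -0.13. The members lie between -0.85 and 0.63, inside the spread of other genes, and FTL, FTH1 and TF are among the most abundant.

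Other genes of metal handling were taken from 5 lists with 85 genes, of which 84 were matched and 75 tested; 29 rose and 29 fell, against 20.9% of all tested genes called higher and 40.4% called lower. The metallothioneins, zinc- and copper-binding proteins that MTF1 drives, rose in the 6 that were tested of 12. Of these, MT1B, MT1E and MT1G passed the filter only through siASGR1. Without any 1 of the siASGR1 libraries those 3 were not tested and 3 rose. SLC30A1 was lower, and so was MTF1, whose call was lost with median-of-ratios scaling (adjusted p = 0.432). MT2A was 52.59, 60.57 and 52.97 FPKM in siASGR1, against 3.82, 3.99 and 2.83 in siControl, so the ratio of SLC30A1 to MT2A was 0.155, 0.124 and 0.150 in siASGR1, against 2.66, 2.47 and 3.80 in siControl. MT1E, MT1G and MT1F averaged 9.09, 7.78 and 4.86 FPKM in siASGR1, against 0.053, 0.14 and 0.84 in siControl. MT1H, with 8 promoter matches before its start, was at most 0.15 FPKM in siASGR1 and 0 in siControl. MT4, with 3, was 0 in all libraries. MT1X, with 4, and MT1B, with 3, were called higher. A link between matches and levels was not tested. Metallothionein genes are near-identical, which makes the values of single genes uncertain.

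Of the genes that carry the BMP signal to hepcidin, 14 of 17 were tested, and 10 were called lower and 2 higher (median -0.61), against 40.4% and 20.9% of all tested genes (median -0.13). With median-of-ratios scaling the counts were also 10 and 2, against 28.9% lower and 29.9% higher among all tested genes. Among the 10, NEO1, a coreceptor of the pathway, averaged 0.56 FPKM in siASGR1 and 1.57 in siControl and passed the filter only through siControl. SMAD4, the shared signal transducer, averaged 4.61 ± 0.13 FPKM in siASGR1 and 8.47 ± 0.24 in siControl, and the inhibitors SMAD7 and SMAD6 averaged 4.40 ± 0.40 and 3.35 ± 0.19 in siASGR1, against 8.66 ± 0.27 and 6.06 ± 0.21 in siControl (SD, n = 3 each). TMPRSS6, a protease that restrains hepcidin, was 0.93 ± 0.12 FPKM in siASGR1 and 3.78 ± 0.37 in siControl. The adjusted p of SMAD4, SMAD6, SMAD7 and TMPRSS6 were at most 6.3e-05.

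Iron sensing genes rose in 6 and fell in 3 of 12 (median 0.12), against 20.9% and 40.4% of all tested genes (median -0.13). ACO1, which encodes the iron regulatory protein IRP1, was 14.45, 14.51 and 15.03 FPKM in siASGR1, against 9.47, 9.34 and 9.46 in siControl (log2 fold change 0.59, SE 0.04, adjusted p = 2.8e-05). EPAS1, the hypoxia factor HIF2α, and the ubiquitin ligase subunit genes CUL1 and SKP1 rose by 0.47, 0.98 and 0.46 on the log2 scale. Heme and iron-sulfur genes rose in 9 and fell in 11 of 29 (median -0.10). With median-of-ratios scaling 11 were higher and 6 lower, against 29.9% and 28.9% of all tested genes. HMOX1, which degrades heme, averaged 21.4 ± 1.78 FPKM in siASGR1 and 43.7 ± 2.40 in siControl. HP, the hemoglobin scavenger haptoglobin, was 2.39 ± 0.32 FPKM in siASGR1 and 0.23 ± 0.012 in siControl, and it passed the filter only through siASGR1. The mitochondrial genes ABCB10 and ISCA1 rose by 0.76 and 0.95 on the log2 scale.

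Copper chaperones and cuproenzyme genes rose in 6 and fell in 5 of 14 tested (median 0.02), against 20.9% and 40.4% of all tested genes. With median-of-ratios scaling 6 were higher and 3 lower, against 29.9% and 28.9% of all tested genes. LOX, a secreted copper oxidase, averaged 48.9 ± 0.82 FPKM in siASGR1 and 22.03 ± 1.38 in siControl, and SOD1, the cytosolic copper-zinc superoxide dismutase, averaged 85.4 ± 3.26 FPKM in siASGR1 and 48.5 ± 4.43 in siControl. SLC25A3, which brings copper and phosphate into mitochondria, fell to 123.6 ± 3.50 FPKM in siASGR1, against 169.4 ± 1.30 in siControl, and CUTC to 12.8 ± 0.26 FPKM in siASGR1, against 20.1 ± 0.84 in siControl (SD, n = 3 each).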

How the data were processed

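The submitters' processing notes name HISAT2 2.0.1, cutadapt 1.9.1, bcl2fastq 2.17.1.14 and the build hg19. How reads were counted (program, annotation, strand) is not given in the sources used. FPKM values were deposited by the authors, rounded to 2 decimals, in 1 table of the whole series and 1 file per library, per the file headers; the table of the series was used. The members and gene lists were chosen with earlier results of these data known. Symbols were found for 89.8% of IDs. Coordinates are those of GENCODE v29 or RefSeq on GRCh38, not of the authors' build.

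Genes that reached 1 FPKM in 3 or more libraries were fitted with limma 3.58.1 (R 4.3.3) on log2(FPKM + 1), which understates changes of low genes, with the group as the only term, an empirical Bayes prior following the level, two-sided tests and Benjamini-Hochberg adjustment over all tested genes, and called at an adjusted p under 0.05. Median-of-ratios and upper-quartile factors were first taken over all genes, and then over tested genes only, a change made after the first counts of calls were seen; both versions are kept as alternatives. The fit was tested on simulated data. Depth was rebuilt with GENCODE exon lengths: 94.9% to 95.5% of low values came out as whole reads within rounding (within 0.02 reads where rounding is finer) (8.4% to 9.9% would by chance), a share that is no independent check because the same values set the depth. The read floor covers counting error only. No 2 libraries of a group agreed within sampling noise (chi-square per degree of freedom 2.49 to 5.20).

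Values in every library are given for a fixed set of 15 members and for any other called member with a log2 fold change of at least 0.5 in size. From each list of other genes, the 4 called genes with the smallest p-values are named. Outside this rule, NEO1 and MT1B are named for how they passed the filter, and MT1H, MT1X, MT1B and MT4 for their promoter matches. Alternatives covered scaling, pseudocount, filters, the prior, the source of values, the threshold, a replicate block, leaving out each library and, added after seeing the data, the factors over tested genes and limma-voom on rebuilt reads with and without median-of-ratios factors.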

Additional observations from a re-analysis of the deposited data

How the results depend on the processing

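The counts of members called were 13 higher and 13 lower. The planned median-of-ratios scaling, with factors over all genes, gave 17 higher and 8 lower members, and 4528 higher and 3494 lower genes among all tested, against 2839 and 5480 as deposited; under it ATP7A changed sign to 0.15 (adjusted p = 0.043). With factors over the tested genes only, adopted after those counts were seen, the same scaling gave 16 and 9 members, and 4056 and 3921 genes. Upper-quartile scaling gave 11 and 13 members over all genes and 15 and 10 over tested genes, a change made at the same time. Both versions of each scaling therefore stand here, and the count of lower members depends on the choice. Leaving out each library in turn gave 10 to 12 higher and 10 to 12 lower members, 2411 to 2741 higher and 4433 to 5095 lower genes among all tested, and 22 to 28 higher and 27 to 28 lower genes of the other metal lists. Requiring FPKM of at least 5 left 3382 lower calls among all tested genes, since fewer genes (7829) were tested. The replicate numbers recur in both groups, but same-numbered libraries did not deviate together (correlations of deviations -0.0189, 0.00208 and 0.0125). With 3 libraries per group this cannot exclude a common culture or batch, which the labels do not state. With the replicate block 12 members were higher and 13 lower, and SLC39A7 was not called (adjusted p = 0.0634). Quantile normalization also ended the calls of SLC39A1 (adjusted p = 0.0659) and SLC39A7 (0.422). The calls of MTF1 (0.804), SLC30A6 (0.328), SLC39A6 (0.105) and TFR2 (0.382) were lost with it too, and SLC39A10 was called higher (0.00672). No called member changed direction under an alternative that tested it. Depth limits HAMP, SLC30A2 and the siASGR1 values of SLC30A3 and SLC30A4, which rest on 6 reads or fewer.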
